A study of Canis lupus familiaris with 10 samples.

Results

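Transcripts of the interferons and of the chains that form their receptors were measured in canine cutaneous histiocytoma (CCH), a benign canine skin tumor of Langerhans cell origin that most often regresses once lymphocytes have entered it. The genes were chosen by name: the interferon genes IFNA7, IFNB1 and IFNG and the receptor genes IFNAR1, IFNAR2, IFNGR1 and IFNGR2. Of these 7 genes, 6 were among the 800 genes of the table, 3 of them interferons and 3 receptor chains. IFNGR2, the second chain of the interferon gamma receptor, was not analysed here.

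The tumors were formalin-fixed and paraffin-embedded, and RNA of whole tumor tissue was read on the nCounter Canine IO Panel, which counts RNA molecules with barcoded probes and without amplification. There were 5 early tumors (group 1 of the histological staging of Cockerell and Slauson) and 5 late tumors (group 3), each from 1 dog and none pooled. The labels of all 5 late tumors also read lymphocyte enriched, which no early label does. No treatment was given in the labels for either stage, and the stage is a histological grade, so each dog was sampled at 1 time only. The dogs with early tumors were 0.5 to 5 years old, with the age given for 4 of 5, and those with late tumors were 1.5 to 9 years old. Male or neutered male dogs made up 3 of the early and 4 of the late tumors. In each stage 1 tumor came from a female, and the sex was not given for 1 dog with an early tumor.

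Interferons are secreted proteins that cells release on meeting viruses, nucleic acids or activated lymphocytes. Type I interferons, the alpha and beta interferons, act through a receptor built of IFNAR1 and IFNAR2, while type II interferon, or interferon gamma, comes mainly from T cells and natural killer cells and acts through a receptor built of IFNGR1 and IFNGR2. Both receptors signal through Janus kinases and STAT proteins to switch on genes of antiviral defense and of antigen presentation, the means by which a tumor cell shows its peptides to T cells.

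The recovered counts (the whole barcode counts that the deposited values were multiples of) summed to between 484696 and 823763 in early tumors and to between 945399 and 1253083 in late tumors. The share of RNA fragments over 200 nucleotides (DV200) was 64.5% to 71.2% in early and 71.2% to 75.8% in late tumors. The scaling factor between recovered and normalized counts was 1.06 to 1.89 in early and 0.929 to 1.24 in late tumors. The stages were run on separate cartridges, so cartridge and stage cannot be told apart. The ratio between positive control probes, the first listed over the second, was 2.09 to 2.17 in early and 2.72 to 2.84 in late tumors. The control probes thus also differed between the cartridges, without overlap. As a check of the labels, all 8 T cell markers were higher in late tumors past the Benjamini-Hochberg threshold in limma, against 27.3% of all genes tested, with a summed normalized count of 548 to 10189 in early and 15516 to 24972 in late tumors. Of the Langerhans and dendritic cell markers, CD207, which encodes langerin, was above background in 1 of 5 tumors of each stage, and CD1C in 0 of 5 early and 5 of 5 late tumors, whereas FLT3, a growth factor receptor of dendritic cells, was above background in all 10 tumors.

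The comparison of early with late CCH asks which of these transcripts differ between early tumors and tumors rich in lymphocytes. Within each interferon type, ligand and receptor had mean differences of opposite sign. The type II ligand IFNG had the higher mean in late and its receptor chain IFNGR1 in early tumors, whereas the type I ligand IFNA7 had the higher mean in early and the receptor chain IFNAR2 in late tumors. The differences in IFNG, IFNB1 and IFNAR1 passed neither adjusted threshold given below, and the type II receptor was represented by IFNGR1 alone. An opposition of ligand and receptor was therefore not shown. The stages were compared with limma, and a gene was called when its p adjusted by Benjamini-Yekutieli was at most 0.05 and its difference at least 2-fold. By that rule 0 of 6 interferon and receptor genes were called, against 11.2% of the 761 genes tested (85 genes, 15 or 1.97% higher in early and 70 in late tumors; 42 and 34 under geometric mean scaling). At an unadjusted p of at most 0.05, limma and the exact permutation test each found 5 of 6, against 45.3% and 45.2% of all genes tested. Both sets of 5 included IFNB1, which was above background in 2 of 5 early and 0 of 5 late tumors. Its p therefore cannot show a difference in the transcript. IFNB1 was left out of the fit limited to genes above background in at least 5 tumors. With the Benjamini-Hochberg adjustment and no fold limit, 3 of 6 passed, IFNA7 and IFNGR1 higher in early and IFNAR2 higher in late tumors, against 35.7% of all genes tested, of which 8.41% were higher in early and 27.3% in late tumors. The median log2 difference, early minus late, was 0.17 over the 6 genes and -0.18 over all genes tested.

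**Figure D1:**
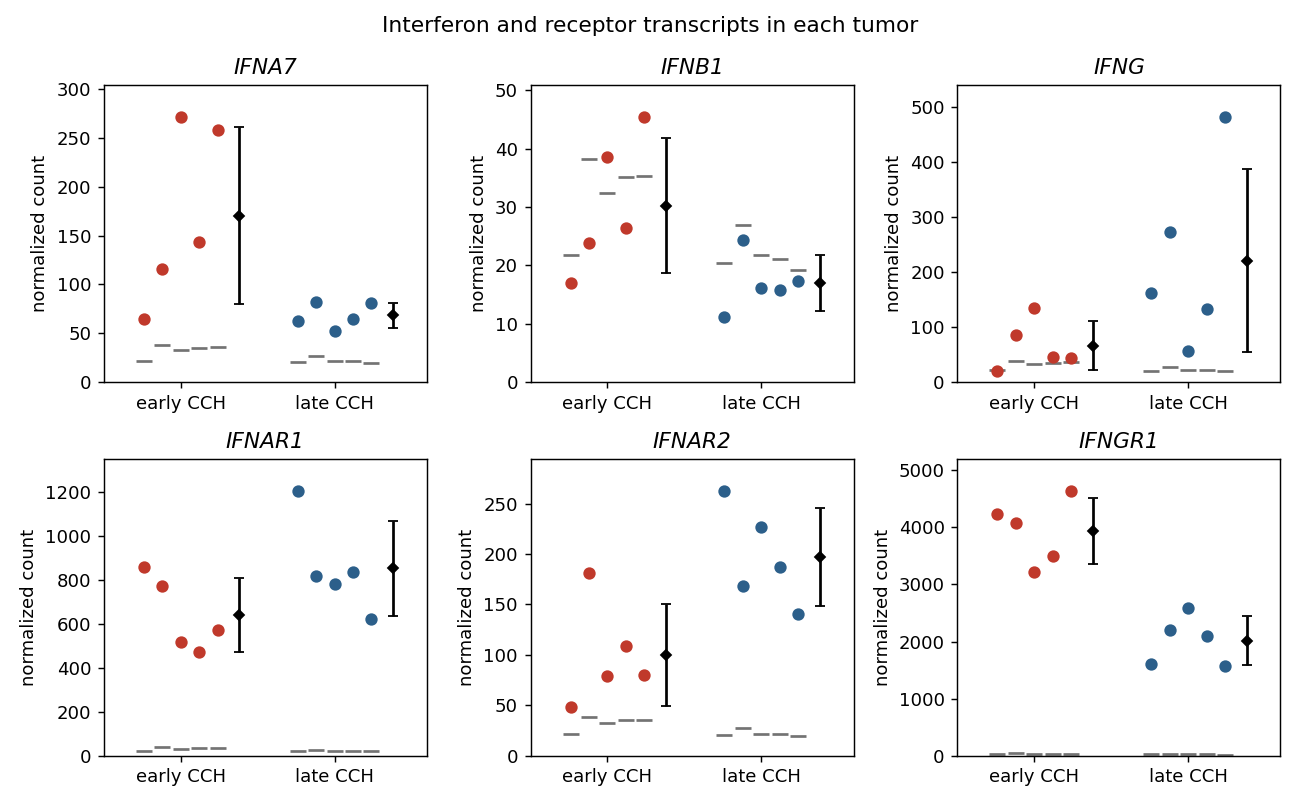
Normalized count of each interferon and receptor gene in each tumor, on linear axes that start at 0, with early CCH in red and late CCH in blue. Diamonds and bars are the mean and SD of 5 tumors, and gray dashes are the background of each tumor, the mean of its negative control probes plus 2 SD. The stages are apart for IFNGR1 and overlap for the other genes, and IFNB1 lies around the background.

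IFNG encodes interferon gamma, the single type II interferon. Its normalized count was 20.1, 84.8, 134, 46.1 and 43.6 in the early tumors and 161, 273, 56.1, 132 and 483 in the late tumors. Early tumor 3 lay above late tumors 3 and 4, so the stages overlapped, and each stage spread widely. The early tumors had a mean of 65.7 ± 44.7 (SD, n = 5) and the late tumors one of 221 ± 166 (SD, n = 5). The difference was 3.17-fold higher in late tumors, a log2 difference of -1.66 (SE 0.62, 95% confidence interval -3.04 to -0.28), with a limma p of 0.0599 after Benjamini-Hochberg and 0.432 after Benjamini-Yekutieli adjustment. IFNG therefore did not pass either adjusted threshold, although it lay past the Benjamini-Hochberg threshold in 2 of 10 fits that left out 1 tumor each, those without early tumor 3 or late tumor 3. In early tumor 1 the recovered count was 19, with a 95% Poisson interval of 11.4 to 29.7, and did not exceed that tumor's background of 20.6 counts. IFNG was above background in 4 of 5 early and 5 of 5 late tumors.

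Since the tissue was measured in bulk, fewer cells of a type and less RNA per cell cannot be told apart. T cell markers moved with IFNG. A T cell score, the mean log2 value of 8 T cell genes (CD2, CD3D, CD3E, CD3G, CD5, CD6, TRAC and TRBC), was 5.49 to 9.62 in early and 10.46 to 10.98 in late tumors. The log2 IFNG value minus this score was -1.09, -1.48, -2.54, -3.69 and -1.45 in the early tumors and -3.57, -2.68, -4.62, -3.92 and -1.68 in the late tumors. Relative to T cell markers, the mean of IFNG was lower and not higher in late tumors. This ratio is poorly measured in part of the early tumors. IFNG lay at 0.92, 1.31 and 1.23 times the background in early tumors 1, 4 and 5. The markers CD3D and CD6 were each above background in 4 of 5 early tumors. The early tumors averaged -2.05 ± 1.07 (SD, n = 5) and the late tumors -3.29 ± 1.14 (SD, n = 5), a difference of 1.24 with an exact two-sided permutation p of 0.0873, where the smallest p that 5 against 5 allows is 0.00794. Without early tumor 4 the difference was 1.65 (exact permutation p = 0.0317), and without late tumor 5 it was also 1.65 (exact permutation p = 0.0397), while the other 8 tumors left out in turn gave 0.91 to 1.40 with exact permutation p of 0.0873 to 0.198. Relative to 11 genes of cytotoxic lymphocytes, among them the granule proteins GZMA, GZMB and PRF1, the difference was 0.35 (exact permutation p = 0.460).

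Within the early stage, tumor 1 had the lowest T cell score and the lowest IFNG value, and tumor 3 the highest of both. Within the late stage, where the T cell score spanned 0.52 log2 units, IFNG spanned 3.08 log2 units. Late tumors 3 and 5, which differed by 0.14 in T cell score, had the lowest and the highest IFNG values of that stage. Late tumor 3 also had the lowest T cell score of its stage, and its cytotoxic score, the mean log2 value of the 11 cytotoxic genes, was 8.47 against 9.42 to 9.60 in the other late tumors.

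**Figure D2:**
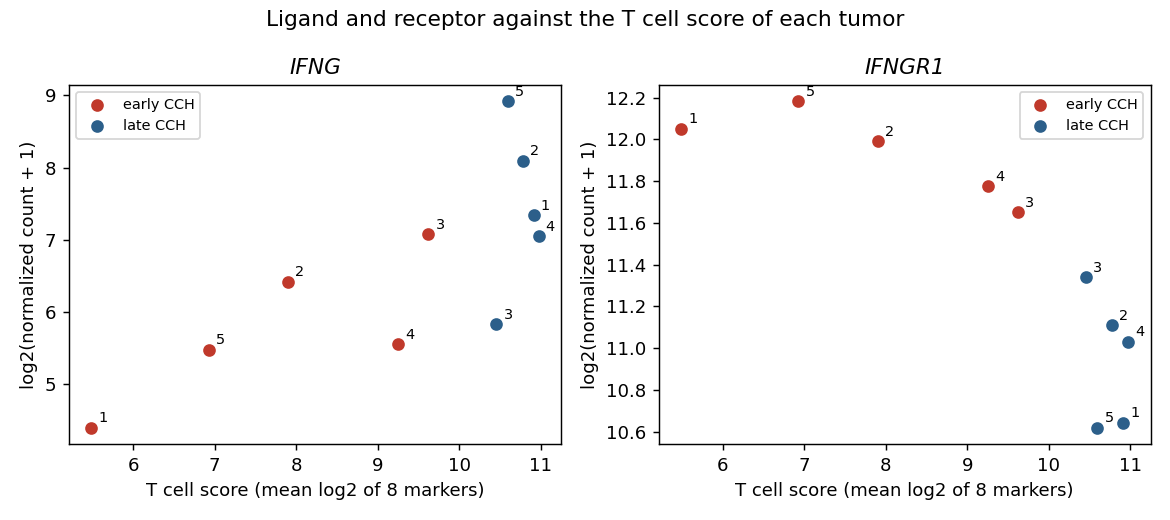
The log2(normalized count + 1) of IFNG (left) and IFNGR1 (right) against the T cell score of the same tumor, the mean log2 value of 8 T cell markers, with tumor numbers beside the points. The late tumors lie within 10.46 to 10.98 on the score and spread in IFNG, whereas IFNGR1 is lower in each late tumor than in any early tumor.

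IFNA7 encodes an interferon alpha, a type I interferon. Its normalized count was 64.5, 115, 272, 143 and 258 in the early tumors and 62.0, 81.8, 51.8, 64.1 and 81.0 in the late tumors. Early tumors 2, 3, 4 and 5 lay above every late tumor, whereas early tumor 1 lay within the late range. The early tumors had a mean of 171 ± 90.6 (SD, n = 5) and the late tumors one of 68.1 ± 13.0 (SD, n = 5), a log2 difference of 1.14 (SE 0.38, 95% confidence interval 0.30 to 1.99) and a 2.21-fold higher level in early tumors. The limma p was 0.0383 after Benjamini-Hochberg and 0.276 after Benjamini-Yekutieli adjustment. The Benjamini-Hochberg call was kept in 2 of 10 fits that left out 1 tumor each, those without early tumor 1 or early tumor 2, and the adjusted p ranged from 0.00718 to 0.0890 over the 10 fits. With DV200 as a covariate the log2 difference was 0.90 and the Benjamini-Hochberg adjusted limma p 0.337, and in male dogs only they were 0.67 and 0.200.

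The IFNA7 signal was low but above background in all 10 tumors, at 2.96 to 8.37 times the background in early and 2.37 to 4.23 times in late tumors. The recovered counts were 61, 68, 148, 87 and 136 in the early tumors and 50, 74, 48, 69 and 75 in the late tumors. Before scaling, then, only early tumors 3, 4 and 5 lay above every late tumor, and the log2 difference was 0.59 with an exact permutation p of 0.0952. Dogs carry several closely related interferon alpha genes next to each other. Which of them the IFNA7 probe can bind is not given in the sources used here, so the signal may include related genes.

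IFNB1 encodes interferon beta, the other type I interferon on the panel. Its recovered count was 16, 14, 21, 16 and 24 in the early tumors and 9, 22, 15, 17 and 16 in the late tumors. Only early tumors 3 and 5 exceeded their own background, and 0 of 5 late tumors did. After normalization the values were 16.9, 23.8, 38.6, 26.4 and 45.5 in early and 11.2, 24.3, 16.2, 15.8 and 17.3 in late tumors.

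The stages overlapped in IFNB1. The log2 difference was 0.76 (SE 0.29, 95% confidence interval 0.11 to 1.40), with a limma p of 0.0650 after Benjamini-Hochberg adjustment, while the recovered counts differed by 0.22 on the log2 scale (exact permutation p = 0.437). With all values raised to a common background floor the log2 difference was 0.05. IFNB1 passed the Benjamini-Hochberg threshold in limma under geometric mean scaling (1.13, adjusted p = 0.00877), with counts divided by their total (1.00, adjusted p = 0.0184), with array weights and with extraction batch as a random block, and without early tumor 1 or late tumor 2. The background itself, in normalized counts, averaged 32.6 ± 6.37 (SD, n = 5) over the early and 21.9 ± 2.99 (SD, n = 5) over the late tumors, while in recovered counts it averaged 20.2 and 20.3. A level of IFNB1 above background was therefore not detectable in most of these tumors.

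**Figure D3:**
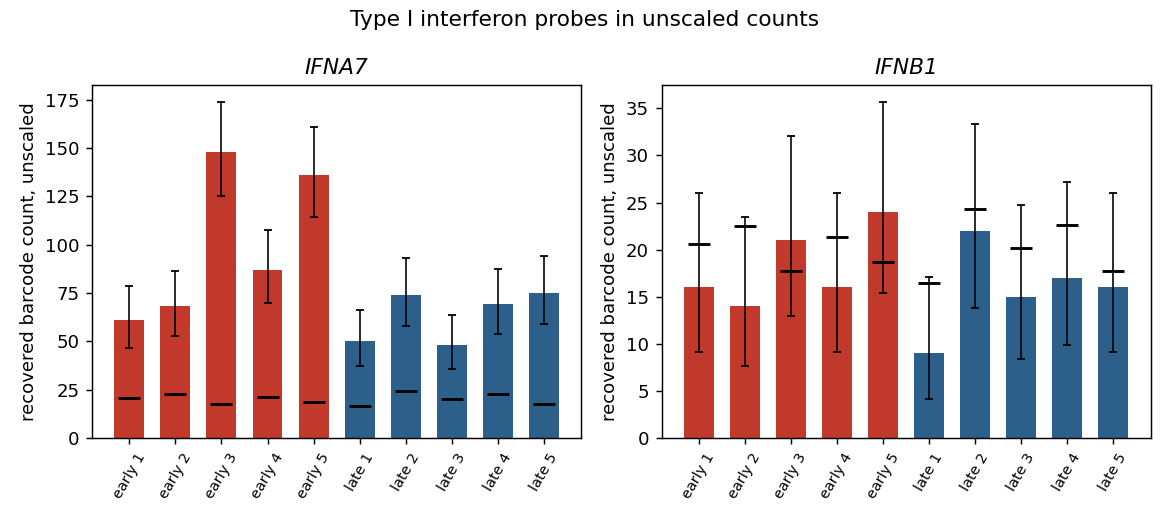
Recovered barcode counts of IFNA7 (left) and IFNB1 (right) in each tumor, before scaling, on linear axes from 0. Error bars are 95% Poisson intervals, which cover counting error only, and thick dashes are each tumor's background; IFNA7 exceeds it in all 10 tumors and IFNB1 in early tumors 3 and 5 only.

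IFNGR1 encodes the chain of the interferon gamma receptor that binds the ligand. Its normalized count was 4241, 4071, 3216, 3504 and 4646 in the early tumors and 1599, 2207, 2592, 2090 and 1571 in the late tumors. Every early tumor lay above every late tumor, which made IFNGR1 the 1 gene of the 6 whose stages did not overlap, against 24.6% of all genes tested and 5.39% that did so with the early stage higher. The early tumors had a mean of 3936 ± 574 (SD, n = 5) and the late tumors one of 2012 ± 432 (SD, n = 5). The log2 difference was 0.98 (SE 0.18, 95% confidence interval 0.59 to 1.37), with a limma p of 0.00325 after Benjamini-Hochberg and 0.0235 after Benjamini-Yekutieli adjustment.

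At 1.98-fold IFNGR1 lay just under the 2-fold limit. In 10 fits that left out 1 tumor each it reached 2-fold in 5 and was called in 3, at log2 differences of 1.05 without early tumor 3, 1.02 without early tumor 4 and 1.08 without late tumor 3. The Benjamini-Yekutieli adjusted limma p ranged from 0.0235 to 0.0672 over these fits and lay above 0.05 in 6 of them, those without early tumor 1 or 5 or late tumor 1, 2, 4 or 5. The Benjamini-Hochberg adjusted limma p stayed at or below 0.00932, but with DV200 as a covariate it was 0.0693 at a log2 difference of 0.99. Without the fold limit, 12.7% of all genes tested passed the Benjamini-Yekutieli threshold and 2.76% did so with the early stage higher. The recovered counts of IFNGR1 were 4009, 2400, 1752, 2127 and 2452 in early and 1289, 1996, 2401, 2251 and 1454 in late tumors. Unscaled, the stages overlapped and the log2 difference was 0.42 with an exact permutation p of 0.167, in libraries whose totals were larger in every late tumor.

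Within the early stage the tumors with the 2 highest T cell scores, tumors 3 and 4, had the 2 lowest IFNGR1 values, whereas the late tumors did not follow that order: late tumor 4 had the highest score and the third highest IFNGR1 value of its stage. With the stage means subtracted, the log2 values of IFNG and IFNGR1 had a Pearson r of -0.66 over the 10 tumors, which share their scaling factor within a tumor. The markers of Langerhans and dendritic cells differed among themselves. FLT3 was called higher in early tumors, with a log2 difference of 2.49, while CD83 (-1.30), XCR1 (-1.60) and CCR7 (-1.68) were higher in late tumors past the Benjamini-Hochberg threshold and the other 4 did not pass, where 8.41% of all genes tested passed with the early and 27.3% with the late stage higher. The summed normalized count of the 8 markers was 1895 to 5054 in early and 2140 to 4775 in late tumors. The part of T cell and of dendritic cell content in the IFNGR1 difference was not tested.

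IFNAR1 and IFNAR2 encode the chains of the type I interferon receptor. The normalized count of IFNAR2, the chain that binds the ligand most tightly, was 48.7, 181, 78.9, 109 and 79.6 in the early tumors and 263, 168, 227, 187 and 140 in the late tumors. Early tumor 2 lay within the late range and the other 4 early tumors below it. The early tumors had a mean of 99.5 ± 50.5 (SD, n = 5) and the late tumors one of 197 ± 48.4 (SD, n = 5). IFNAR2 was 2.11-fold higher in late tumors, a log2 difference of -1.08 (SE 0.33, 95% confidence interval -1.82 to -0.34), with a limma p of 0.0303 after Benjamini-Hochberg and 0.218 after Benjamini-Yekutieli adjustment.

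The Benjamini-Hochberg call of IFNAR2 was lost in 6 of 10 fits that left out 1 tumor each (without early tumor 1, 3 or 5 or late tumor 1, 3 or 4), where the Benjamini-Hochberg adjusted limma p reached 0.0690. It was also lost under scaling by the geometric mean of the tested genes, at a log2 difference of -0.69, by quantiles, at -0.41, and by the total count, at -0.81. With DV200 as a covariate the log2 difference was -0.97 and the Benjamini-Hochberg adjusted limma p 0.267, and the call was also lost in male dogs only, with the replicate block and with the exact permutation test.

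The normalized count of IFNAR1, the other chain of that receptor, was 858, 773, 516, 473 and 570 in the early tumors and 1207, 819, 779, 838 and 622 in the late tumors. The stages overlapped, with an early mean of 638 ± 168 (SD, n = 5) and a late mean of 853 ± 215 (SD, n = 5). The log2 difference was -0.42 (SE 0.23, 95% confidence interval -0.93 to 0.08), with a limma p of 0.169 after Benjamini-Hochberg adjustment. A difference in IFNAR1 was not shown at this sample size.

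The balance of the receptor chains was taken as the log2 ratio of IFNAR2 to IFNAR1 within a tumor, which cancels the scaling factor. It was -4.11, -2.09, -2.69, -2.11 and -2.83 in the early tumors and -2.19, -2.28, -1.78, -2.16 and -2.14 in the late tumors. The late tumors lay close together, at -2.11 ± 0.19 (SD, n = 5), and the early tumors were spread, at -2.77 ± 0.82 (SD, n = 5). The difference of -0.66 had an exact permutation p of 0.119. Without early tumor 2 it was -0.83 and without early tumor 4 it was -0.82, each with an exact permutation p of 0.0397, and without early tumor 1 it was -0.32.

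Because the scaling factors differed between the stages, the size of each difference depended on the scaling. The median log2 difference of all genes tested was -0.18 in the deposited values, which were scaled on housekeeping genes, 0.21 under geometric mean scaling, 0.21 under quantile normalization, 0.09 with recovered counts divided by their total and -0.73 with no scaling. The 85 genes called became 81 under quantile normalization, 47 of them higher in early and 34 in late tumors, 72 with counts divided by their total (31 and 41) and 235 with no scaling (6 and 229). No interferon or receptor gene changed its direction under these 5 scalings. Relative to the median of all genes, IFNA7 was 1.32 to 1.42 and IFNGR1 1.06 to 1.17 higher in early tumors on the log2 scale. IFNB1 was 0.40 to 0.95 above that median.

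For the genes that were higher in late tumors, the log2 difference relative to the median of all genes was -1.50 to -1.48 for IFNG and -0.90 to -0.61 for IFNAR2. IFNAR1 lay close to the median gene, at -0.29 to -0.24. IFNGR1 passed the 2-fold limit and the Benjamini-Yekutieli threshold under geometric mean scaling, at a log2 difference of 1.37, under quantile normalization, at 1.27, and with counts divided by their total, at 1.25.

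**Figure D4:**
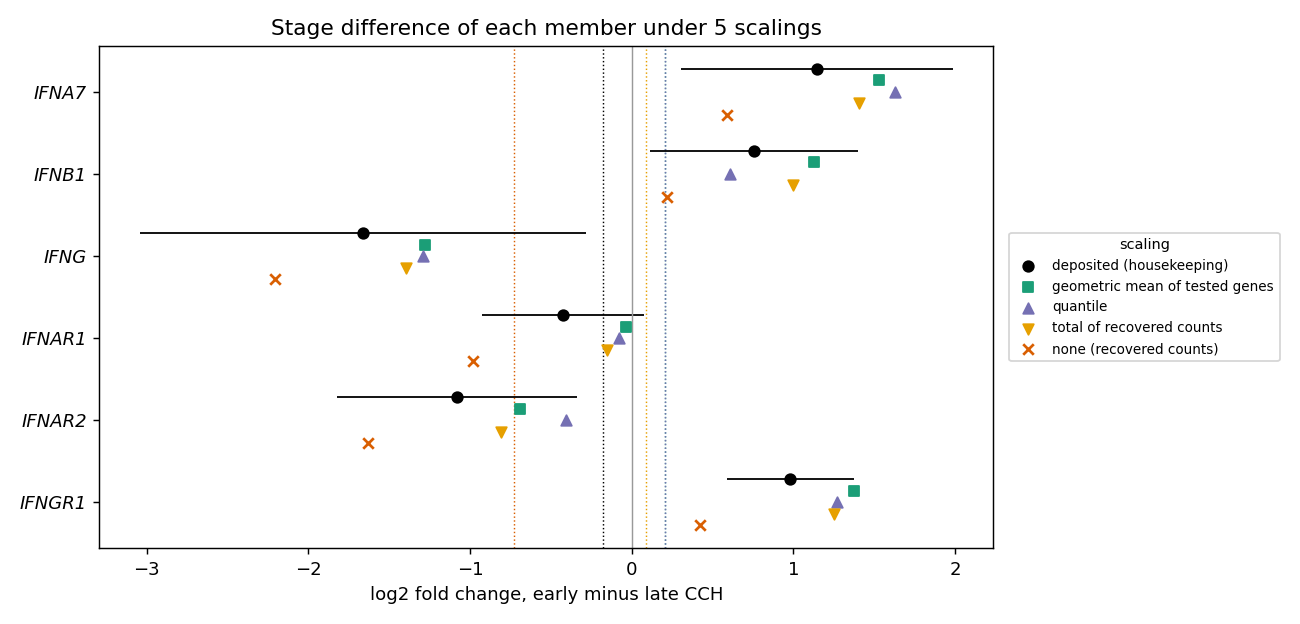
Log2 fold change, early minus late, of each interferon and receptor gene under 5 scalings, with the 95% confidence interval for the deposited scaling and dotted lines at the median of all genes under each scaling. Each gene stays on its side of 0, and quantile normalization moves IFNB1 and IFNAR2 closer to the median of all genes than the other scalings do.

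The 3 genes whose log2 values followed each member most closely, with the stage means subtracted, were taken from the 761 genes tested. These are the highest correlations of many, over 10 tumors in which all probes of a tumor share 1 cartridge, depth and scaling factor, and are given as a description. IFNG ran with TRGC8, a T cell receptor gamma segment (Pearson r = 0.89), NOS2, an interferon-inducible nitric oxide synthase (r = 0.89), and PRF1, the pore protein of cytotoxic lymphocytes (r = 0.86). IFNA7 ran with KLRF1, a receptor of natural killer cells (r = 0.92), HCST, a signaling adapter of such receptors (r = 0.88), and IFNB1 (r = 0.87).

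IFNB1 ran with IFNA7 and with the cytokine receptor gene IL13RA2 (r = 0.87) and the cytokine gene IL24 (r = 0.83). IFNB1 itself exceeded background in only 2 of the 10 tumors. IFNGR1 ran with TLR7, a sensor of RNA (r = 0.91), TYK2, a kinase bound to IFNAR1 (r = 0.91), and SYK, a kinase of immune receptors (r = 0.85). IFNAR2 ran with CASP10, a caspase of death receptors (r = 0.93), TAPBP, which loads peptides onto MHC class I (r = 0.92), and VSIR, an immune checkpoint (r = 0.91). IFNAR1 ran with CEBPA, a transcription factor of myeloid cells (r = 0.82), NLRP3, an inflammasome sensor (r = 0.80), and ITGAV, an integrin chain (r = 0.80).

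Around the receptors, 4 genes of the relay of Janus kinases and STAT proteins are described. STAT2 and JAK1 were higher in late tumors past the Benjamini-Hochberg threshold, and 0 of 4 passed it with the early stage higher, against 27.3% and 8.41% of all genes tested. The log2 difference was -0.94 (SE 0.25) for STAT2, which serves type I interferon, and -0.48 (SE 0.13) for JAK1, the kinase that both receptors share. Under geometric mean scaling the log2 difference of JAK1 was -0.09 with a Benjamini-Hochberg adjusted limma p of 0.673, and STAT2 stayed past the threshold at -0.55. JAK2, a kinase of the interferon gamma receptor, had a log2 difference of 0.02 (SE 0.14) and TYK2 of -0.0027 (SE 0.14), and neither passed; under geometric mean scaling they had 0.41 and 0.39, also without passing. Of the negative regulators, SOCS1, an inhibitor of Janus kinases, had a log2 difference of -1.50 and CISH of -0.55, and 0 of 2 passed.

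Genes that interferon gamma is known to switch on were higher in late tumors past the Benjamini-Hochberg threshold in 11 of 14 cases and higher in early tumors in 0, with a median log2 difference of -1.32, against 27.3% of all genes higher in late tumors and a median of -0.18. The 5 called with Benjamini-Yekutieli and 2-fold were IRF1, PSMB10, TAP1, GBP5 and ICAM1, against 9.2% of all genes tested called higher in late tumors. Under geometric mean scaling 2 of 14 were called, GBP5 and IRF1, where 34 of 761 genes were called higher in late tumors. Under that scaling 10 of 14 passed the Benjamini-Hochberg threshold with the late stage higher, where 152 of 761 genes did, and PSMB9 passed it with the early stage higher, where 193 of 761 genes did, and the median was -0.94 against 0.21 over all genes. IDO1, which breaks down tryptophan, had a log2 difference of -3.24 (SE 0.82) and CCL5, a chemokine that T cells also make, -2.87 (SE 0.98). GBP5, a guanylate-binding protein, had -2.26 (SE 0.42) and the transcription factor IRF1 -1.70 (SE 0.28). In the deposited values 12 of 14 had the higher mean in late tumors, as IFNG did, whereas CIITA, the regulator of MHC class II genes, at 0.26 and PSMB9, an immunoproteasome subunit, at 0.44 had positive log2 differences and did not pass there.

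Of the genes known as type I interferon targets, 1 of 8 passed the Benjamini-Hochberg threshold with the late stage higher, against 27.3% of all genes tested. It was BST2, a membrane protein that tethers virus particles, with a log2 difference of -2.40 (SE 0.57), higher in late tumors. The other 7 included MX1 (-0.99), ISG15 (-0.68) and OAS2 (-0.46), each without a call. All 8 had a negative log2 difference, with a median of -0.84 against -0.18 over all genes tested, and of -0.45 against 0.21 under geometric mean scaling. IFNA7 had a positive difference under both scalings.

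Among 13 genes that drive the making of interferon gamma, 5 were higher in late tumors past the Benjamini-Hochberg threshold and 0 in early tumors, against 27.3% of all genes tested higher in late tumors. Under geometric mean scaling 4 passed with the late and 1 (IL15) with the early stage higher, where 152 and 193 of 761 genes did. The median log2 difference was -0.49, and -0.10 under that scaling, against -0.18 and 0.21 over all genes. EOMES, a transcription factor of cytotoxic lymphocytes, had a log2 difference of -3.32 (SE 0.65) and was the 1 gene of 13 called with Benjamini-Yekutieli and 2-fold, against 9.2% of all genes tested called higher in late tumors. IL2RB, a receptor chain for interleukins that expand lymphocytes, had -2.04 (SE 0.55), the T helper cytokine IL21 -1.96 (SE 0.45) and STAT4, which relays interleukin signals to IFNG, -1.81 (SE 0.59). IL12A (-0.12) and IL18 (-0.49), which encode cytokines that induce IFNG, did not pass, and IL12B was above background in 0 of 5 early and 2 of 5 late tumors. IL12RB2 (0.50), IL15 (0.32) and IL18R1 (0.26) had positive differences in the deposited values and did not pass there. The T cell markers named above were also higher in late tumors, and their part in the differences of these groups was not tested.

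Among 14 genes that lead to type I interferon, 3 were higher in late tumors past the Benjamini-Hochberg threshold and 0 in early tumors, no larger a share than the 27.3% of all genes tested. Under geometric mean scaling 2 passed with the late and 4 (MYD88, TBK1, TICAM2 and TLR7) with the early stage higher, where 152 and 193 of 761 genes did. The 3 were TLR8, a sensor of RNA, with a log2 difference of -1.51 (SE 0.43), the kinase IKBKE with -0.92 (SE 0.18) and the transcription factor IRF3 with -0.83 (SE 0.14). TLR7 (0.69), TLR9 (-0.23) and MYD88 (0.17), through which plasmacytoid dendritic cells sense nucleic acids, did not pass in the deposited values. Plasmacytoid dendritic cells are known as strong producers of interferon alpha, and 3 of their markers were in the table. Their summed normalized count was 399 to 633 in early and 530 to 661 in late tumors, most of it from NRP1, a gene that many cell types express. IL3RA lay near background, with a log2 difference of -0.12, and did not pass. SPIB, which B cells also express, was the 1 of 3 past the Benjamini-Hochberg threshold, higher in late tumors, where 4 of 6 B cell markers also passed, with a median log2 difference of -2.14 over the 6.

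**Figure D5:**
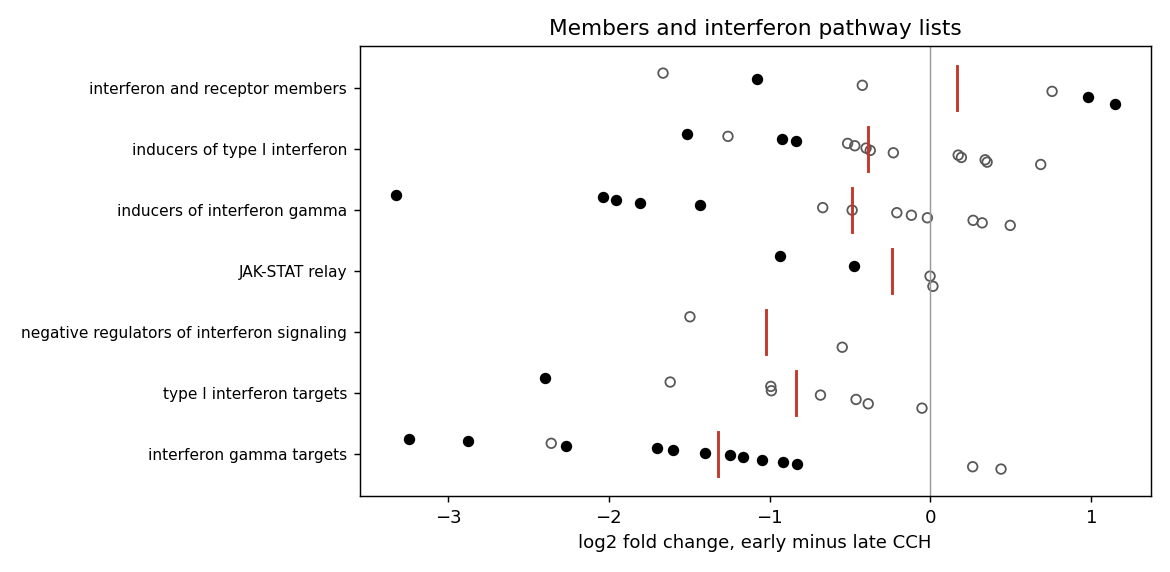
Log2 fold change, early minus late, of the interferon and receptor genes and of the genes in each pathway group, with filled points past the Benjamini-Hochberg threshold, open points not past it and red bars at the median of each group. Interferon gamma targets have 11 of 14 filled points, all on the late side, while the interferon and receptor genes lie on both sides of 0.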

How the data were processed

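RNA of 5 early and 5 late tumors was read with the nCounter Canine IO Panel; the table held 800 genes and 14 control probes. The deposited signal values are barcode counts that the authors normalized in nSolver to positive controls and then to housekeeping genes, 1 column per tumor; background subtraction is not given in the sources used here. A tumor's deposited values were multiples of 1 step (at least 99.4% whole within 0.0051 of the deposited value), which gave recovered counts. Their totals ranged from 484696 to 1253083; Poisson intervals (95%) cover counting error only. Background was the mean of the 8 negative control probes plus 2 SD.

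Genes with a mean of at least 20 (761; 39 fell below) were tested on log2(normalized count + 1), a scale that understates changes of low genes, with limma 3.58.1 (lmFit, eBayes with trend) in R 4.3.3. Late CCH was the baseline and positive differences are higher in early CCH. Calls needed 2-fold and a p of at most 0.05 adjusted by Benjamini-Yekutieli. Scores and ratios were compared by exact two-sided permutation tests. Each tumor counted as 1 replicate of its stage. The script was tested on simulated data. Plots used matplotlib 3.10.9.

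The members and gene groups were chosen with earlier results of these data known. Named were all members, the relay genes (1 item is not reported here and is left out of that group), up to 4 genes with the largest difference past the Benjamini-Hochberg threshold in each other pathway group and the 3 genes most like each member. SOCS1, CISH, PSMB10, TAP1, ICAM1, MX1, ISG15, ISG20, OAS2, OAS3, IL12A, IL12B, IL12RB2, IL15, IL18, IL18R1, TLR7, TLR9, MYD88, TBK1, TICAM2, SPIB, NRP1, IL3RA, CIITA, PSMB9, CD207, CD1C, FLT3, CD83, XCR1 and CCR7 were named after their values were seen. All 6 members matched a RefSeq gene symbol. Alternatives covered the pseudocount, filter, background, scaling, weights, covariates, blocks, adjustment and left-out tumors.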

Additional observations from a re-analysis of the deposited data

Results flagged for a closer look

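Over 18 sets of 5 tumors (the 6 genes and 3 derived measures in each stage), 1 tumor stood apart from the others of its stage by Dixon's test, about the number that chance gives at 1 in 20. In late tumor 3 the log2 ratio of IFNAR2 to IFNAR1 was -1.78, against -2.28 to -2.14 in the other late tumors, a gap of 0.723 of the stage's whole range.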

How the results depend on the processing

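No interferon or receptor gene reversed its direction under any alternative, but the calls depended on the scaling, the adjustment, DV200, the dogs included and the block. DV200 was 64.5% to 71.2% in early and 71.2% to 75.8% in late tumors, so the fit with DV200 can hardly separate it from stage. Against 0 called genes, 1 of 6 was called under geometric mean scaling and 1 with counts divided by their total (IFNGR1 in each), 2 under quantile normalization (IFNGR1 and IFNA7), 2 with no scaling (IFNG and IFNAR2) and 2 with the Benjamini-Hochberg adjustment at the 2-fold limit (IFNA7 and IFNAR2). Leaving out 1 tumor gave 0 to 1. Against 3 past the Benjamini-Hochberg threshold, there were 3 under geometric mean scaling and 3 with counts divided by their total, with IFNB1 in place of IFNAR2 in each, 5 with array weights, 5 with extraction batch as a random block (estimated correlation -0.14, below 0), 1 in male dogs only, 1 with the exact permutation test, 0 with DV200 as a covariate, 4 with the negative probe mean subtracted (IFNG added), and 1 to 3 with a tumor left out. With no scaling 3 passed that threshold (IFNG, IFNAR1 and IFNAR2), and under quantile normalization 2 did (IFNA7 and IFNGR1). The replicate numbers did not pair the tumors (correlations of deviations from -0.20 to 0.16), and a fit with the replicate block left 1 of 6, IFNGR1, past that threshold and called 0 of 6. Over all genes tested, the 85 called became 188 with the Benjamini-Hochberg adjustment at 2-fold, 235 with no scaling, 1 with the replicate block, 0 with DV200 as a covariate, 0 in male dogs and 0 with the exact permutation test, whose smallest p is 0.00794. They were 39 to 98 with a tumor left out, lowest without late tumor 1. The 272 past Benjamini-Hochberg became 45 with DV200, 133 in male dogs, 187 with the exact permutation test, 228 with the replicate block, 292 with array weights, 321 with the extraction block, 345 under geometric mean scaling, 324 under quantile normalization, 318 with counts divided by their total and 385 with no scaling. IFNG relative to T cell markers differed by 0.91 to 1.65 with a tumor left out, and the IFNAR2 to IFNAR1 ratio by -0.83 to -0.32. Genes leading to type I interferon past the Benjamini-Hochberg threshold numbered 6 (4 of them higher in early tumors) instead of 3 under geometric mean scaling, and the relay genes described 1 instead of 2. The cause of these shifts was not tested; fits with tumors or sexes left out hold fewer tumors. Cartridge and stage cannot be told apart, each extraction batch, matched to tumors through breed and age in the study's sample list, held 1 stage only, the DV200 of late tumor 5 differs between the labels (used here) and the study's RNA sheet, and counts near background limit IFNB1 and the lowest IFNG values.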
